A study of Mus musculus with 2 samples.

Results

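The genes described here are the chromosomal neighbours of Shh on mouse chromosome 5: Insig1, En2, Cnpy1 and Rbm33 on one side of it, and Rnf32, Lmbr1, Nom1, Mnx1, Ube3c and Dnajb6 on the other. They were chosen by position, as the named neighbours of Shh, and every probe set whose annotation names exactly 1 gene, that gene being one of the 10, was taken. This gave 23 probe sets for 9 of the 10 genes, out of 34945 probe sets with a single gene and 18193 named genes. Nom1, which encodes a nucleolar protein of ribosome assembly, had no probe set in the annotation used, so its expression was not analysed here. Expression had been measured in tissue dissected from between the digits (ID2 and ID3) of mouse hind limbs at stage E13.5, on Affymetrix arrays, in embryos homozygous for Hammer toe (the array labelled Hm) and in wild-type B6 embryos (the array labelled WT). Hammer toe is a mutant with webbed digits. There was 1 array for each genotype, although the study describes 15 embryos per genotype in 3 sets of 5 littermates, and how these sets were combined on the array is not stated. The labels give the strain B6 for WT alone, so effects of strain and of the Hammer toe genotype cannot be told apart. Without replicates there is no error between samples and no test, and the precision is limited by the number of arrays.

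Shh encodes a secreted signal that patterns the limb from its posterior margin. Its limb expression is driven by an enhancer called the ZRS, which does not lie beside Shh but within an intron of Lmbr1, so that Rnf32 and the body of Lmbr1 stand between the enhancer and its target or around it. Genes that lie within reach of an enhancer can respond to it or stay indifferent to it, and En2, Cnpy1, Insig1 and Mnx1 are known to be expressed in patterns of their own in the embryo. The comparison asks whether transcripts of the genes next to Shh differ along with Shh in Hammer toe interdigital tissue.

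In these 2 arrays Shh was higher in Hammer toe, while no measured probe set of its neighbours differed by 1.5-fold or more. The brighter Shh probe set, 1436869_at, read 192 in Hm and 22.5 in WT. The other, 1427571_at, was under the floor described next, at 7.11 in Hm and 11.1 in WT. Values were raised to a floor of 78.1, the median of all non-control values, before ratios were taken, and a probe set is called measured where at least 1 array exceeded that floor. Shh was therefore at least 2.45-fold higher in Hm. Of the 23 probe sets of the neighbours, 13 were measured, for 6 genes, and all 13 were above the floor on both arrays. None of the 13 reached 1.5-fold, where 3.90% of all 20995 measured single-gene probe sets did. At that background share a count of 0 among 13 is not a result about the neighbours. Their log2 ratios, Hm over WT, ran from -0.56 to 0.51, with 6 probe sets higher and 7 lower. Taking each gene at its brightest measured probe set, 3 genes were higher and 3 lower, with a median log2 ratio of 0.00 against 0.01 over all 11627 measured genes. The plot of intensities by probe set shows Shh as the widest gap among the rows that cross or lie above the floor.

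**Figure D1:**
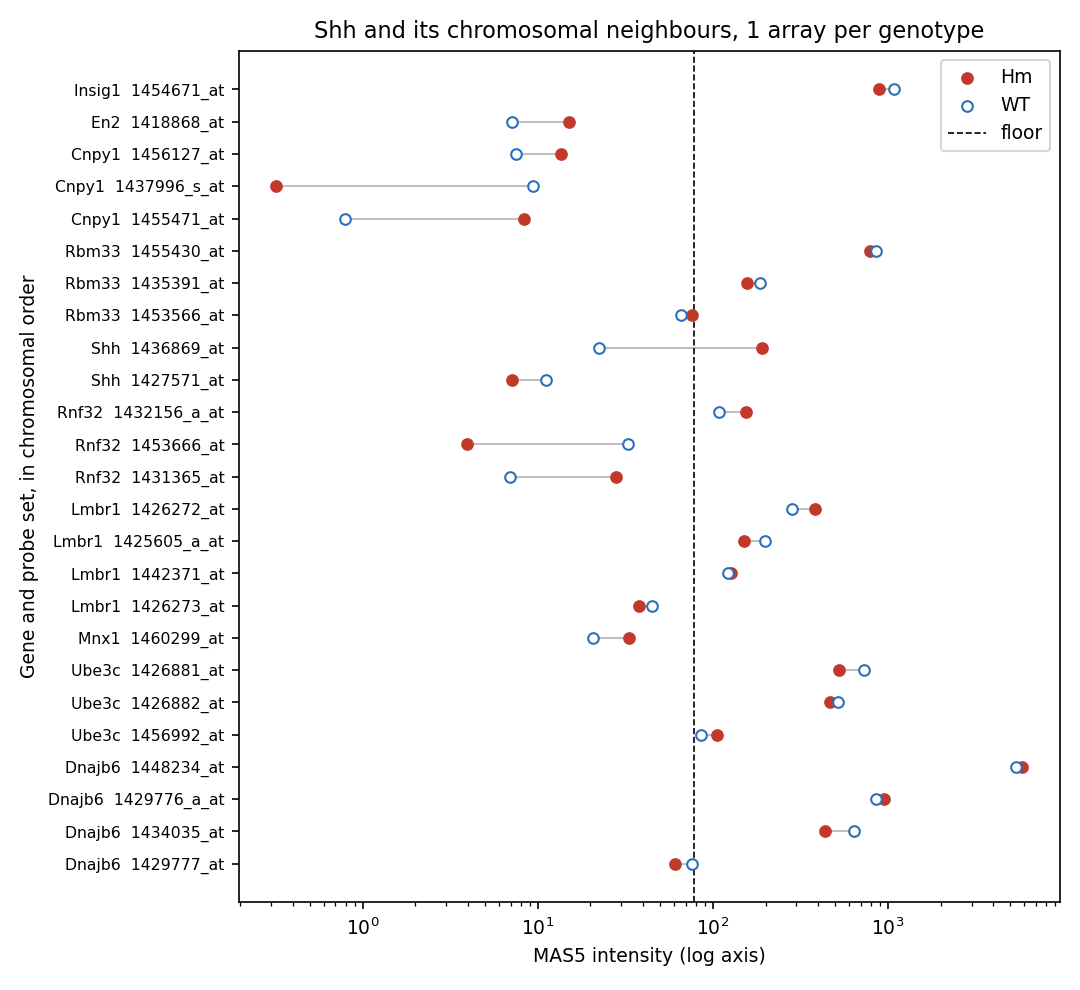
MAS5 intensity (log axis) of every single-gene probe set of Shh and of its listed neighbours, in chromosomal order, on the Hm array (filled red) and the WT array (open blue). The dashed line is the floor of 78.1. The brighter Shh probe set lies at 192 in Hm and 22.5 in WT, and the 2 arrays differ by at most 1.47-fold on the measured probe sets of the neighbours.

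Promoter sequences are shown for 4 neighbours, picked because these 4 differ in whether they were measured and yet share a promoter rich in CpG dinucleotides. Each is the RefSeq sequence (GRCm38.p6) from 250 bases before to 50 bases after the annotated start, written 5′ to 3′ on the gene's strand, with CpG dinucleotides in capitals. Insig1 and Rnf32 are on the plus strand, at chr5:28071162-28071461 and chr5:29195743-29196042. Lmbr1 and Mnx1 are on the minus strand, at chr5:29378341-29378640 and chr5:29478421-29478720.
Insig1: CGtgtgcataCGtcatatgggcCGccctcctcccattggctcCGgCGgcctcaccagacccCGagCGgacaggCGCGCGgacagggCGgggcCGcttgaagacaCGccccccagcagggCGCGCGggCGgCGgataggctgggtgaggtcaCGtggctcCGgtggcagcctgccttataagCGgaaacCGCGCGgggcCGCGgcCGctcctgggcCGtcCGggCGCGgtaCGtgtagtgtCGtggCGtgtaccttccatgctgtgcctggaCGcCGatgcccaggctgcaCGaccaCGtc
Rnf32: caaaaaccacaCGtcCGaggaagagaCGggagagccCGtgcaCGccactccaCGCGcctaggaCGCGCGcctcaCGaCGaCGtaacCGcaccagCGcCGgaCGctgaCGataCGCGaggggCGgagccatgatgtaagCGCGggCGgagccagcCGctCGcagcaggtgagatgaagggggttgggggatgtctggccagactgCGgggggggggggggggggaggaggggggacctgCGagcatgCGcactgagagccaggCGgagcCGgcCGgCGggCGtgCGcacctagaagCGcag
Lmbr1: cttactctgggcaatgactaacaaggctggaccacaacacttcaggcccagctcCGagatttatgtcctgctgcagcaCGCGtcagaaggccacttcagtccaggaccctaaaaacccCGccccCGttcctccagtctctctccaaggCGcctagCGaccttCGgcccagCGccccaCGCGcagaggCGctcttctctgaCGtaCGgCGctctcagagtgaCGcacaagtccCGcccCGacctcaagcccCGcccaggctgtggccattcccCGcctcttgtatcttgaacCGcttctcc
Mnx1: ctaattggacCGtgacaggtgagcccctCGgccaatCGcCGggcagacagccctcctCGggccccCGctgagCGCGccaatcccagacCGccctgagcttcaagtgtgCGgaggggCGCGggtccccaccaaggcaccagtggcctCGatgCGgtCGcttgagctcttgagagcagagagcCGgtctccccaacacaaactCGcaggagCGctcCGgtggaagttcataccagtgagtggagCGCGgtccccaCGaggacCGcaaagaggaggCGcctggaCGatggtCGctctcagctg

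The Insig1 window holds 38 CpG, that of Rnf32 36, that of Mnx1 26 and that of Lmbr1 21, where the median of all 32851 promoter windows of this length is 7. Mnx1, under the floor on both arrays, thus has more CpG in this window than Lmbr1, which was measured. Among the windows not shown, those of Cnpy1, also under the floor, hold 34 and 6 CpG, and that of Nom1 holds 14. The table held promoters for 9 of the 10 genes, 11 windows in all. A search on both strands for the GLI site GACCACCCA, bound by the transcription factors at the end of the hedgehog pathway, found no match in the 11 windows, and 0.253% of all windows hold one. The sterol regulatory element TCACCCCAC had no match either, where 0.551% of all windows hold one. TATAAA was absent as well, against 13.6% of all windows. The CCAAT box, searched as CCAAT, was present in the windows of Insig1 and Mnx1 and in 37.4% of all windows. Such matches describe letters in a window and not bound sites.

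The genes of the first side, where Rbm33 is next to Shh, were at or slightly below wild type where measured. Rbm33 encodes an RNA-binding protein. Its brightest probe set, 1455430_at, read 789 in Hm and 857 in WT, a log2 ratio of -0.12. A second probe set, 1435391_at, read 157 in Hm and 185 in WT, a log2 ratio of -0.24, so both measured probe sets of Rbm33 were lower. The last, 1453566_at, was under the floor at 75.9 in Hm and 66.0 in WT. Insig1 encodes a protein of the endoplasmic reticulum that holds back the sterol-sensing SREBP complex, and it is itself an SREBP target. Its single probe set, 1454671_at, read 894 in Hm and 1078 in WT, 1.21-fold lower. Among probe sets whose brighter array is over 1000, 95% lay within 0.32 of no difference on the log2 scale, and Insig1, at -0.27, lies inside that range.

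En2 and Cnpy1, between Insig1 and Rbm33, were not measurable on either array. En2 encodes an engrailed homeobox factor of the midbrain and hindbrain, and its probe set read 15.2 in Hm and 7.16 in WT. Cnpy1 belongs to the Canopy family, and in zebrafish canopy1 promotes FGF signalling at the midbrain-hindbrain boundary. Its 3 probe sets read 13.52, 0.322 and 8.40 in Hm, against 7.55, 9.34 and 0.794 in WT. The highest of these 8 values was 15.2, well under the floor, and the Cnpy1 probe sets did not share a direction.

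On the other side, Rnf32 and Lmbr1 are the genes closest to Shh, and each had its brightest probe set higher in Hm. Rnf32 encodes a RING-domain protein. Its measured probe set, 1432156_a_at, read 154 in Hm and 108 in WT, 1.42-fold higher, a log2 ratio of 0.51. This was the highest ratio among the neighbours. Among probe sets whose brighter array reads up to 200, 95% lay within 1.59-fold, so Rnf32 does not leave that range. Its other probe sets, 1453666_at and 1431365_at, were under the floor and opposed each other, at 3.97 and 28.1 in Hm, against 32.7 and 6.95 in WT.

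Lmbr1 encodes a membrane protein with many transmembrane segments, and its intron carries the ZRS. The brightest probe set, 1426272_at, read 384 in Hm and 284 in WT, 1.35-fold higher. The next, 1425605_a_at, went the other way, with 149.8 in Hm and 199 in WT, 1.33-fold lower. Another, 1442371_at, read 127 in Hm and 122 in WT, a log2 ratio of 0.06. The remaining one was under the floor, at 38.0 in Hm and 44.9 in WT. The mean log2 ratio of its measured probe sets was 0.03. Probe sets in both directions, at any size, were found in 65.8% of the 1423 genes with 3 measured probe sets. A range of log2 ratios at least as wide as the 0.85 of Lmbr1 was found in 4.50% of them.

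Mnx1 encodes the homeobox factor of motor neurons, and its probe set was under the floor, at 33.1 in Hm and 20.6 in WT. Of 12 listed neuron markers, 11 had a probe set and 5 were measured, namely Tubb3, Stmn2, Nefl, Nefm and Elavl4. The motor neuron markers Isl1, Chat, Lhx3 and Slc18a3 were under the floor on both arrays. Any link of these markers to the Mnx1 reading was not tested. The summed level of the 5 measured markers was 819 in Hm and 769.9 in WT. Interdigital mesenchyme was well represented: all 8 of its markers, Hoxd13, Hoxa13, Msx1, Msx2, Prrx1, Twist1, Aldh1a2 and Bmp7, were measured, with a summed level of 63668 in Hm and 70095 in WT. In bulk tissue, fewer cells of a type and less RNA per cell cannot be told apart.

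Ube3c and Dnajb6 lie furthest from Shh in the list. Each had probe sets on both sides of wild type, as most genes with 3 measured probe sets did at any size. Ranges of log2 ratios at least as wide as theirs were found in 6.32% and 8.50% of such genes. Ube3c encodes a HECT ubiquitin ligase that acts with the proteasome. Its brightest probe set, 1426881_at, read 528 in Hm and 731 in WT, 1.38-fold lower. The second, 1426882_at, read 465 in Hm and 518 in WT, a log2 ratio of -0.15. The dimmest, 1456992_at, was higher, at 105 in Hm and 85.2 in WT, a log2 ratio of 0.30.

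Dnajb6 encodes an HSP40 co-chaperone that suppresses protein aggregation. Its brightest probe set, 1448234_at, read 5857 in Hm and 5354 in WT, a log2 ratio of 0.13, and the next, 1429776_a_at, read 954 in Hm and 851 in WT, a log2 ratio of 0.17. The probe set 1434035_at stood apart from these, at 435 in Hm and 641 in WT, 1.47-fold lower. That is the largest difference among the 13 measured probe sets and lies just beyond the 1.45-fold within which 95% of probe sets with a brighter array of 200 to 1000 lay. The remaining probe set was under the floor, at 61.0 in Hm and 75.6 in WT.

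The sizes of the differences, and the spread among probe sets of one gene, can be set beside those of all probe sets. The median size of the log2 ratio, regardless of direction, was 0.27 over the 13 measured probe sets and 0.13 over all measured probe sets. A log2 ratio of 0.32 or more in size was found for 5 of the 13, where 16.8% of all measured probe sets reached that size. Of the 5, 2 were higher, where 9.07% of all probe sets were, and 3 lower, where 7.77% were. Of the 5 with a brighter array up to 200, 2 reached it, where 31.0% of all such probe sets did. Of the 6 at 200 to 1000, 3 reached it, where 17.7% did, and of the 2 over 1000, none, where 5.03% did. Where 3 probe sets of a gene were measured, as for 1423 genes, the median range of their log2 ratios was 0.31. The range was 0.85 for Lmbr1, 0.77 for Ube3c and 0.73 for Dnajb6, and ranges at least as wide were found in 4.50%, 6.32% and 8.50% of those genes. These are shares of genes on the same arrays and not tests.

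**Figure D2:**
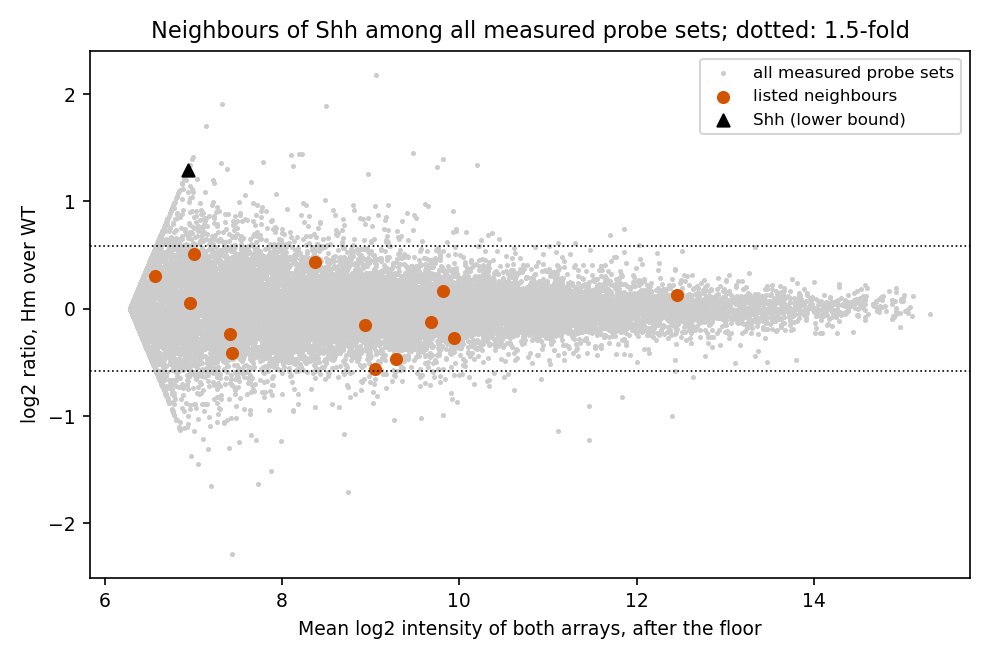
log2 ratio, Hm over WT, against the mean log2 intensity of both arrays after the floor, for all 20995 measured single-gene probe sets (grey), the 13 of the listed neighbours (orange) and Shh (black triangle, a lower bound). The dotted lines mark 1.5-fold. The neighbours lie between -0.56 and 0.51 inside the grey cloud, and Shh lies at 1.29.

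Among the 10 probe sets of the neighbours that stayed under the floor, 6 read higher and 4 lower in Hm before flooring, and 5 differed by 2-fold or more in raw values. In all 13950 single-gene probe sets under the floor on both arrays, 41.0% did so. The values of En2, Cnpy1 and Mnx1 are therefore given as readings only, with no fold change. The arrays do not say whether these genes were off, only that they were not above the floor.

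Hedgehog signalling itself gives the scale against which the neighbours can be set. Hhip, a hedgehog-binding protein and target of the pathway, read 310.4 in Hm and 82.7 in WT, 3.75-fold higher. Gli1, a transcriptional effector and target, was 1.82-fold higher, and Ptch1, the receptor, had a log2 ratio of 0.32. With Shh these are 4 measured genes, of which 3 reached 1.5-fold, where 3.56% of all measured genes did. Each of the 3 lay further from wild type than any measured probe set of a neighbour.

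Genes related to the neighbours but located elsewhere were listed for comparison. Of 18 relatives from the same families, 16 were measured, 12 higher and 4 lower, with a median log2 ratio of 0.08. None was at 1.5-fold, where 3.56% of all measured genes were, so the count is not a result about the relatives. The largest ratios were those of Dnajb12, another DnaJ co-chaperone, at -0.46, and Lmbr1l, a relative of Lmbr1, at 0.38. Sterol genes, which share SREBP control with Insig1, were 9 higher and 5 lower among 14 measured of 18 listed, with a median of 0.03. The largest ratios there were those of Mvk, a kinase of the mevalonate pathway, at 0.48, and Scap, the SREBP escort protein, at 0.19. No sterol gene reached 1.5-fold on its brightest probe set, which at 3.56% of all measured genes is not a result about them either. A second probe set of Stard4, a sterol carrier, stood at -0.73, and 1 of Hmgcs1 stood at -0.55. The other measured probe set of Mvk was lower, at -0.31. Scap, at 0.19, and Insig1, its partner protein, at -0.27, both lay within 0.32. That range held 95% of probe sets with a brighter array over 1000. Insig2, a relative of Insig1, was at 0.24 on its brightest probe set.

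**Figure D3:**
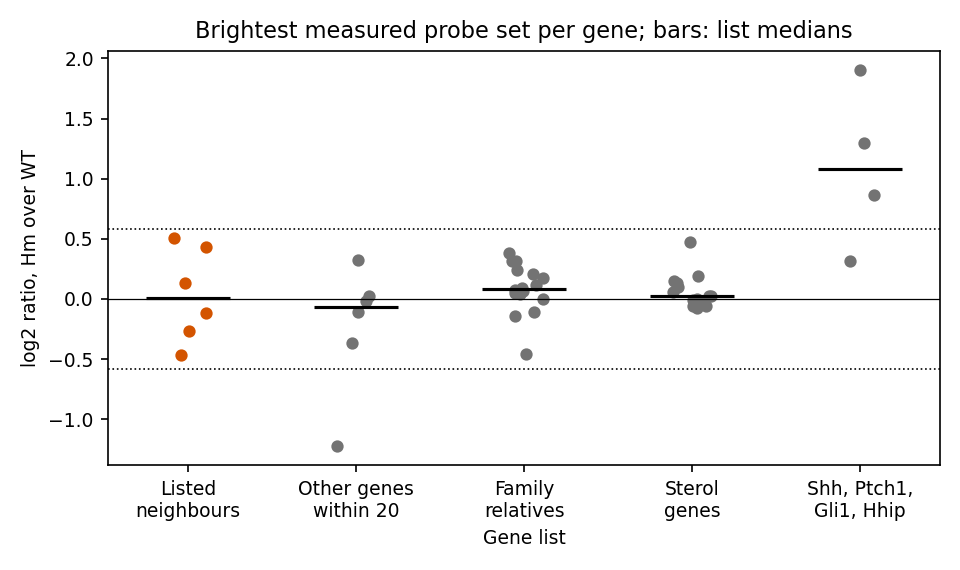
log2 ratio, Hm over WT, of the brightest measured probe set of each gene (points) in 5 lists, with the list median (bar) and 1.5-fold as dotted lines. Medians were 0.00 in the listed neighbours, -0.07 in the other genes within 20 of Shh, 0.08 in the family relatives, 0.03 in the sterol genes and 1.08 in Shh, Ptch1, Gli1 and Hhip, where Shh enters as a lower bound.

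The 20 protein-coding genes nearest to Shh on each side, by RefSeq gene order, extend the view beyond the listed neighbours. Of these 40 genes, 26 had a probe set and 12 were measured, 5 higher and 7 lower. Of the 12, 1 reached 1.5-fold on its brightest probe set, where 3.56% of all measured genes did. That gene was Hadhb, a subunit of the mitochondrial enzyme of fatty acid oxidation, which read 1848 in Hm and 4326 in WT, 2.34-fold lower, on a probe set with the suffix _x_at, whose probes may hybridise to related transcripts. Its probe set 1426522_at went the other way, at 3099 in Hm and 2340.4 in WT, 1.32-fold higher. The other probe set of Hadhb was under the floor in Hm, with a bound at a log2 ratio of -0.50.

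When all measured probe sets were read, the 6 measured genes of that neighbourhood outside the list had 15, of which 4 reached 1.5-fold, 26.7% against 3.90% of all probe sets. The 4 were in Hadhb, Tyms, Selenoi and Slc35f6, which all lie beyond Dnajb6. They were looked at after their values were seen. Tyms, the thymidylate synthase gene, read 158 in Hm and 85.9 in WT on 1438690_at, 1.84-fold higher, but 226 in Hm and 292 in WT on 1442192_at, 1.29-fold lower. Selenoi, which makes a membrane phospholipid, was 1.57-fold higher on 1432374_a_at and at -0.02 on its brightest probe set. Slc35f6, a membrane transporter, was higher on both probe sets, by log2 ratios of 0.32 and 0.91. On the opposite side Paxip1, a DNA damage response gene beyond Insig1, had 4 probe sets between -0.13 and 0.06. Paxip1 was the only unlisted gene measured on that side, so these counts do not compare the sides.

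**Figure D4:**
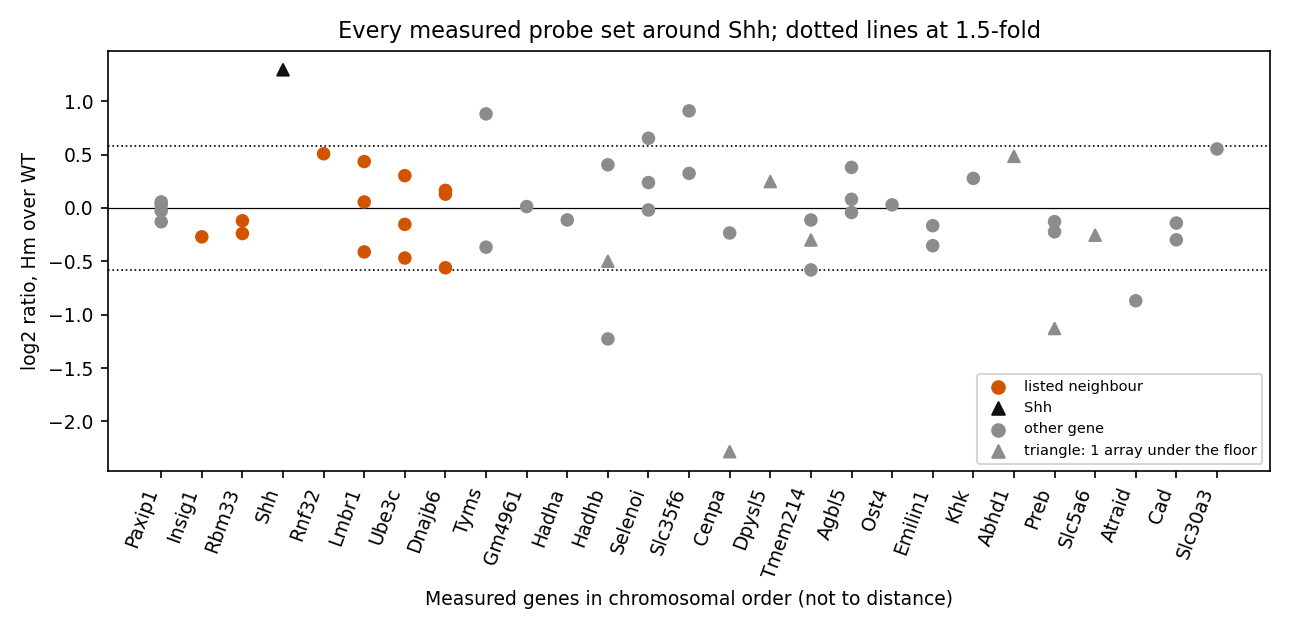
log2 ratio, Hm over WT, of every measured probe set of the measured genes around Shh, in chromosomal order and not to distance, with 1.5-fold as dotted lines. Orange points are listed neighbours, grey ones other genes, and triangles have 1 array under the floor, so that their ratio is a bound. Paxip1, Insig1 and Rbm33 lie between -0.27 and 0.06, while on the far side of Shh probe sets of the same gene spread apart, from -1.23 to 0.40 in Hadhb. Paxip1, Insig1 and Rbm33 are the only genes plotted on their side, so the sides are not compared.

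The same reading along the whole chromosome is plotted in windows of 20 successive measured genes, a summary chosen after the values were seen. The windows around Dnajb6 held the highest shares on chromosome 5.

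**Figure D5:**
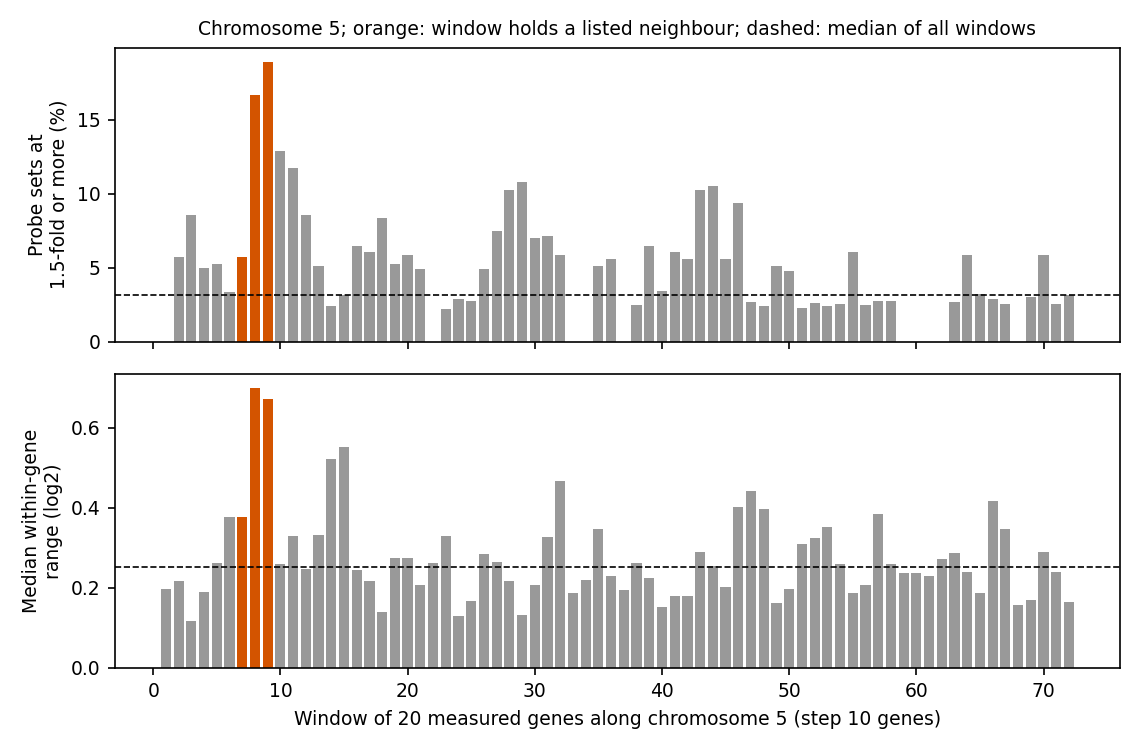
Share of probe sets at 1.5-fold or more (upper panel, %) and median range of log2 ratios among probe sets of a gene (lower panel), in 72 windows of 20 measured genes along chromosome 5, in chromosomal order. Orange bars are windows that hold a listed neighbour, and dashed lines are the medians of all 1131 windows, 3.13% and 0.25. The highest bars are the windows that hold Dnajb6, at 18.9% and 16.7%. None of the 13 measured probe sets of the listed neighbours reached 1.5-fold, where 3.90% of all did. At that share this is not a result about the neighbours.

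Surface ectoderm, cartilage and erythroid markers, from cell types that interdigital samples can hold, differed in level between the arrays. The summed level of 12 measured ectoderm markers out of 13 was 14162 in Hm and 11194 in WT. That of 8 cartilage markers out of 8 was 9266 in Hm and 14172 in WT, and that of 6 erythroid markers out of 8 was 49231 in Hm and 57213 in WT. On brightest probe sets 9 ectoderm markers were higher and 3 lower. Of the cartilage markers 1, Acan, was higher and 7 lower, and all 6 erythroid markers were lower. Most of the erythroid sum was Hbb-y, at 33861 in Hm and 34790 in WT, a log2 ratio of -0.04. Of the cartilage markers, Sox5, Sox9, Col2a1 and Col9a1 were at least 1.5-fold lower in Hm, and of the erythroid markers Hbb-bh1 was, where 3.56% of all measured genes reached that size in either direction. No ectoderm marker reached that size on its brightest probe set, but other probe sets stood at -0.71 for Epcam and 0.71 for Trp63. The part of these cell types in the ratios of the neighbours was not tested.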

How the data were processed

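Values were the deposited intensities of 45101 probe sets on 2 arrays, 1 for Hammer toe and 1 for wild type. Per the submitters' processing notes, the authors used MAS5 and Affymetrix Expression Console. Versions are not given in the sources used here. MAS5 scales each array, and the mean after trimming 2% from both ends was 500.003 for each, so a shift of most transcripts one way cannot be seen. The labels' protocols give RNeasy total RNA and 250 ng of it for biotinylated cRNA. GEO's platform annotation named the genes, with symbols updated by gene ID through the RefSeq table of GRCm38.p6, which also gave the gene order. The 64 control probe sets were left out. Values under 78.1, the 50th percentile of all others, were raised to it and log2 ratios, Hm over WT, were taken in Python 3.11.15 with numpy 2.4.6 and pandas 2.3.3. The script was tested on simulated data. Genes were called by size, 1.5-fold or more, with no test. The text names all 10 genes, Shh and the measured hedgehog readouts, and of the neighbourhood, relative and sterol lists the genes at 1.5-fold or the 2 largest. Cell type markers, and other genes around Shh such as Paxip1, Hadha and Ost4, are named outside that rule, with their values known. With 2 arrays no genes of similar pattern could be named. Alternatives were other floors, a pseudocount, scalings, probe set rules and fold sizes. The members and lists were chosen with earlier results of these data known.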

Additional observations from a re-analysis of the deposited data

How the results depend on the processing

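With 1 array per genotype the direction of each neighbour rests on its probe sets. No paired analysis was possible because there was 1 array in each genotype. Median centring, quantile normalization, the lowess correction (span 0.3), a pseudocount of 16 and a floor at the 75th percentile left 0 neighbour probe sets at 1.5-fold. Of all probe sets, 3.90%, 3.89%, 3.88%, 5.24% and 0.771% reached that size, in the same order. At these shares a count of 0 is not a result about the neighbours. With the floor at the 25th percentile 2 of 19 reached 1.5-fold, and with no floor 7 of 23, where 15.4% and 27.5% of all probe sets did. On brightest probe sets these floors gave 1 of 7 genes (Mnx1) and 3 of 9 (En2, Cnpy1 and Mnx1), where 14.4% and 25.6% of all genes reached that size. With no floor the median log2 ratio of the 9 neighbour genes was 0.44, and the median over all genes is not given here. That median takes in En2, Cnpy1 and Mnx1, whose readings lay under the main floor and are not read as fold changes. At a smaller size, a log2 ratio of 0.32, the count was 5 of 13, where 16.8% of all probe sets reached it. At 2-fold it was 0, where 0.414% did. Averaging probe sets moved Lmbr1 to 0.03, Ube3c to -0.11 and Dnajb6 to -0.09, so that Dnajb6 changed sign. Insig1, Rbm33 and Rnf32 kept their direction wherever they were measured, and Rnf32 was not measured at the 75th percentile or without the suffixed probe sets. Averaging could not have changed these directions. In the main setting Insig1 and Rnf32 each had 1 measured probe set, and Rbm33 had 2, both lower. For the lists, alternatives were chosen after seeing the data. Among the 40 nearest genes the count at 1.5-fold was 4 of 18 measured with the floor at the 25th percentile and 12 of 26 with none, against the same 14.4% and 25.6%, and 0 of 11 without the suffixed probe sets, where 3.74% of all genes reached it, and by the mean over probe sets the 1 gene that reached it was higher in Hm, not lower. The 4 of 15 probe sets in unlisted genes of that neighbourhood became 1 of 7 with the floor at the 75th percentile. Without suffixed probe sets they became 2 of 9. Of all probe sets, 0.771% and 4.01% reached 1.5-fold there. With the floor at the 25th percentile the count was 7 of 24 and with none 20 of 35, where 15.4% and 27.5% of all did. The hedgehog readouts gave 0 at the 75th percentile, where only Ptch1 was measured. The causes were not tested beyond the fewer or more probe sets each floor admits. Low intensity limits En2, Cnpy1, Mnx1 and Rnf32 most.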

Other observations

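The spread among probe sets beyond Dnajb6 was followed along all chromosomes, in windows of 20 successive measured genes taken every 10 genes. The windows were chosen after the values were seen and are a description without a test. Over 1131 windows the median share of probe sets at 1.5-fold or more was 3.13%, and the upper quartile was 5.71%. The window from Dnajb6 to Slc30a3 had 7 of 37 probe sets at that size, 18.9%, 3 higher and 4 lower in Hm, the highest share of all windows. The window before it, which holds Shh and 6 of the listed neighbours and ends at Tmem214, had 7 of 42, 16.7%, and ranked 4. Shh was among these 7, and none of them belonged to a listed neighbour. With 13 neighbour probe sets measured and 3.90% of all at that size, their absence is not a result about them. On other chromosomes the highest share was 18.2%. The windows that follow on chromosome 5 had 12.9%, 11.8% and 8.57%, and the window that ends at Ube3c had 5.71%.

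The 2 windows overlap and describe largely one stretch: they share 10 genes and 5 of the 7 probe sets at 1.5-fold in each, those of Tyms, Hadhb, Selenoi, Slc35f6 and Cenpa. The range within genes was wide in both. In the window with 6 neighbours the median range of log2 ratios among probe sets of a gene, over 12 genes with more than 1 measured probe set, was 0.70, and from Dnajb6 to Slc30a3 it was 0.67 over 11 genes, against a median of 0.25 over all windows. They ranked 2 and 4, and the highest value on other chromosomes was 0.71. For the stretch from Dnajb6 to Slc30a3, the floor at the 75th percentile left 17 probe sets. Of these 2 were at 1.5-fold, both lower in Hm. That share, 11.8% where 0.771% of all probe sets were, thus rests on 2 probe sets. With the pseudocount of 16, 10 of 37 were at 1.5-fold, where 5.24% of all were. Without suffixed probe sets the share was 20.8% of 24, where 4.01% of all were. It was 32.1% of 53 with the floor at the 25th percentile and 46.8% of 62 with no floor, where 15.4% and 27.5% of all were. A difference of strain around Shh cannot be told apart from the genotype, and probe sequences were not used here.

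Single probe sets carried these shares. For Cenpa, the centromeric histone gene, 1444416_at read 19.1 in Hm and 380.5 in WT, at least 4.87-fold lower, while 1450842_a_at read 4955 in Hm and 5829 in WT, 1.18-fold lower. Preb, a regulator of protein export from the endoplasmic reticulum, was at least 2.19-fold lower on 1455667_at, while its other probe sets stood at -0.22 and -0.13. Atraid had 1 measured probe set, which read 743 in Hm and 1358 in WT, 1.83-fold lower. Genes of the same stretch such as Ost4, at 0.03, and Hadha, a subunit of the enzyme that Hadhb also belongs to, at -0.11, lay near wild type.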
